A study of Mus musculus with 2 samples.

Results

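Chaperones are proteins that help other proteins to fold, keep them from clumping and rescue them after stress. The HSP70 machines bind short exposed stretches of a client protein and are driven by J-domain proteins, which deliver clients and stimulate the ATPase of HSP70, and by exchange factors such as the BAG proteins, which make it release its nucleotide. HSP90 matures kinases and receptors downstream of HSP70, the ring-shaped chaperonins (HSP60 with HSP10 in mitochondria, CCT in the cytosol) enclose their clients, the small HSPs hold unfolded proteins, and the FKBPs are peptidyl-prolyl isomerases, several of which serve HSP90 or the folding of collagen. Osteoclasts, the multinucleated cells that resorb bone, secrete proteases and acid and are rich in mitochondria, so that folding in the cytosol, the endoplasmic reticulum (ER) and mitochondria all bear on their work.

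The genes described here are the mouse genes of these families, chosen by symbol: those that begin with Hsp90, Hspa, Hspb, Hspd, Hspe, Hsph, Dnaja, Dnajb or Dnajc, or with Cct, Fkbp or Bag and a digit, with Hspbap1 left out. Of the 20654 genes that the array names, 100 met this rule. They had 134 probes on 152 spots, and none of these spots was marked as uneven or as an outlier. The RefSeq table holds another 23 such genes that were not analysed here, 21 of them pseudogenes or related sequences and the others Dnajb5 and Hspa1b. The symbol rule also takes in Hspb11, a component of ciliary transport, and Hspbp1, an exchange factor of HSP70 and not a small HSP, which is kept apart below.

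The study compared osteoclast cultures of wild type mice with cultures of Dnmt3a knockout mice, which lack a DNA methyltransferase that sets new methylation marks. Both groups were female C57BL/6 mice. Adherent bone marrow precursors, obtained in 2 days with M-CSF, were then given RANKL, which turns such precursors into osteoclasts, together with M-CSF. Both cultures had the same treatment. RNA of each genotype was hybridised to 1 single-colour (Cy3) array. The allele, the cells that had lost the gene, the mouse's age and the length of the RANKL culture are not given in the sources used here. With 1 array per genotype there was no replicate, no test across samples and no p-value, and the number of arrays limits the precision of every value.

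The values are differences of knockout minus wild type in log2, after each array's signal was divided by its 75th percentile (584 for wild type, 572 for the knockout). The SE in parentheses combines the errors that the scanner software gave for the spots of each array. It is the software's estimate of the reading error and holds nothing about differences between mice. For the brighter genes on 1 spot it hardly varied, at 0.20 from Hspa8 (202314 in wild type) to Dnajc24 (1489). For such genes a difference beyond the error is thus one past a nearly fixed cutoff of 0.20. For 259 probes with at least 8 spots, the differences of a probe's spots had a median SD of 0.07, below the 0.20 of 1 spot. Dnmt3a itself, the check of the labels, gave 7042 in wild type and 1822 in the knockout (-1.92, SE 0.20, 1 probe). Whether the deletion covers that probe is unknown. Of all spots, 52.7% in wild type and 59.7% in the knockout were well above background.

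Markers of the cells in the cultures moved as well. All 10 osteoclast markers were measured on both arrays and lay below 0 (median -0.57), from Calcr (-0.84) to Acp5 (-0.00), and their summed signal was 1149430 in wild type and 983321 in the knockout. All 7 macrophage markers on the array lay above 0 (median 0.69, summed signal 375643 and 430075), as did all 8 neutrophil markers (median 0.47, summed signal 148154 and 191745). Of 8 stromal and osteoblast markers 6 were measured and lay below 0 (median -0.84, summed signal of the 7 on the array 147516 and 96114), and Runx2 was not well above background on either array. Of 5 erythroid markers 2 were measured, Epor at 0.33, beyond its error (379 and 466), and Slc4a1 at -0.10, while Klf1 and Alas2 were not well above background. The 4 B cell markers (median 0.18) and the measured T and NK cell markers (Nkg7 0.16, Cd3e 0.18; Cd3g and Klrb1c were not well above background) differed by less than the scanner error. In bulk RNA, fewer cells of a type and less RNA per cell cannot be told apart, and the part of these shifts in the values below was not tested.

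Most chaperone genes were well above background in both cultures and few of them differed by much. Of the 100 genes, 88 were well above background on both arrays, against 13479 (65.3%) of all named genes. Of these 88, 57 (64.8%) were lower and 31 were higher on the knockout array. The background is 48.1% of all measured genes below 0. The median difference was -0.08, against 0.01 over all measured genes, and the SD was 0.32, against 0.37. Of the 88 genes 28 (31.8%) were lower by more than their scanner error, where 21.5% of all measured genes were, and 11 (12.5%) were higher by more than it, where 24.0% were. For the other 49 the difference lay within it, which does not show them to be equal on both arrays.

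Large differences made up a share near that of all measured genes. There were 4 genes at least 1.5-fold lower (Fkbp9, Fkbp10, Cct6a and Fkbp14), 4.55% of the 88 against 4.69% of all measured genes. Another 4 were at least 1.5-fold higher (Cct6b, Dnajc19, Dnajb13 and Fkbp15), 4.55% against 5.82%. With normexp background correction both counts were 2 (2.27% each, against 2.16% of all genes lower and 3.64% higher). With spike-in scaling they were 47 lower (53.4% against 39.5%) and 1 higher (1.14% against 0.490%). None was 2-fold lower, where 0.727% of all measured genes were, and Cct6b alone was 2-fold higher, where 0.824% were. Among the 60 members at or above the median signal level, 66.7% were below 0 against 47.1% of all genes of that level, 3 were at least 1.5-fold lower (5% against 2.4%) and 2 at least 1.5-fold higher (3.33% against 4.79%). At that level no member was 2-fold lower or higher, where 0.104% and 0.401% of all genes were.

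**Figure D1:**
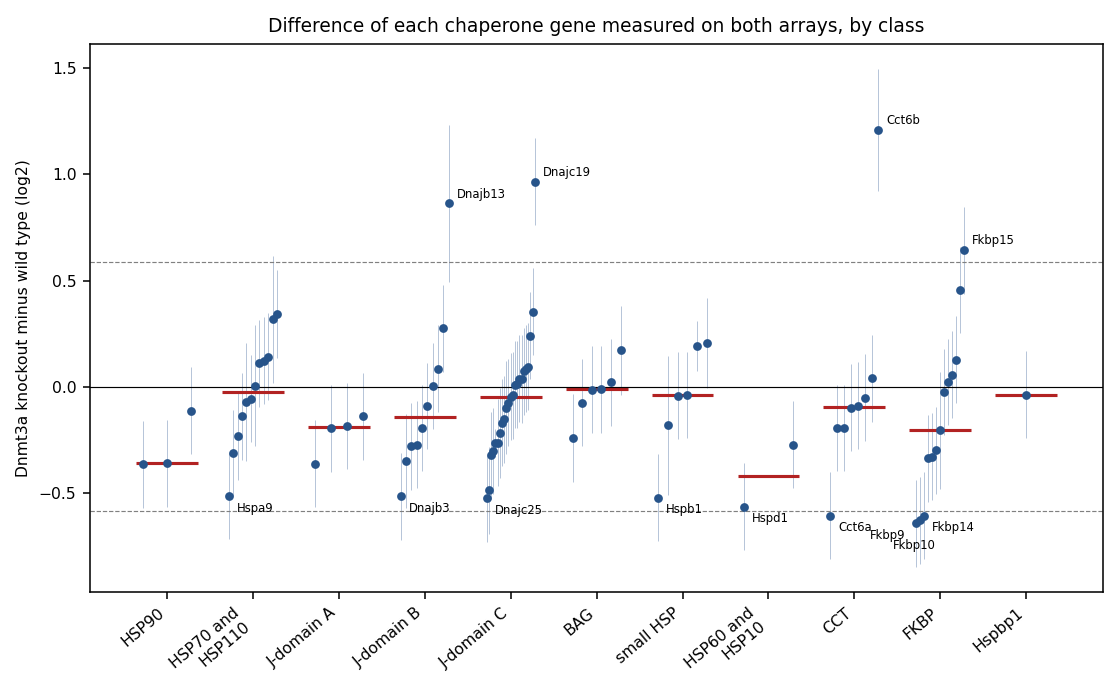
Difference between the arrays for each of the 88 chaperone genes measured on both (vertical axis, log2, knockout minus wild type), by class. Points are genes, thin bars the scanner error (no replicates), red lines class medians and dashed lines 1.5-fold. The medians of HSP90 (-0.36) and of HSP60 with HSP10 (-0.42) lie lowest, and Cct6b (1.21) is the highest point.

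These directions depend on the scale. For the spike-in RNAs 8 probes were used, those with most spots well above background on both arrays. Their own differences lay between 0.30 and 0.74 with a median of 0.53. Setting that median to 0 moved the median of all measured genes to -0.51 and that of the chaperone genes to -0.61. Scaling by the median spot moved them to -0.18 and -0.28. A positive difference below 0.53 is therefore negative with spike-in scaling. Both scalings shift all genes alike, so the gap between the medians of chaperone genes and all genes, -0.10, could not change. Over the other alternatives to the processing it lay between -0.10 and -0.06. What follows is relative to the bulk of the genes.

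The chaperone genes were also set against genes of like signal, in 10 bins of the mean level. Here 63 of 88 (71.6%) lay below the median of their bin, which splits all genes of the bin evenly. The 5th percentile of the bin was passed downwards by 6 genes (6.82%), Cct6a, Fkbp9, Fkbp10, Hspb1, Hspa9 and Hspd1, and the 95th upwards by 4 (4.55%), Cct6b, Dnajb13, Fkbp15 and Dnajc19. By definition about 5% of all genes lie past each of these percentiles, and both shares are near that. In the brightest bin 14 of 17 chaperone genes lay below the bin's median of 0.05. Genes in the dimmest bin spread more widely on both sides (-0.75 to 0.80 between these percentiles) than those in the brightest (-0.38 to 0.66).

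**Figure D2:**
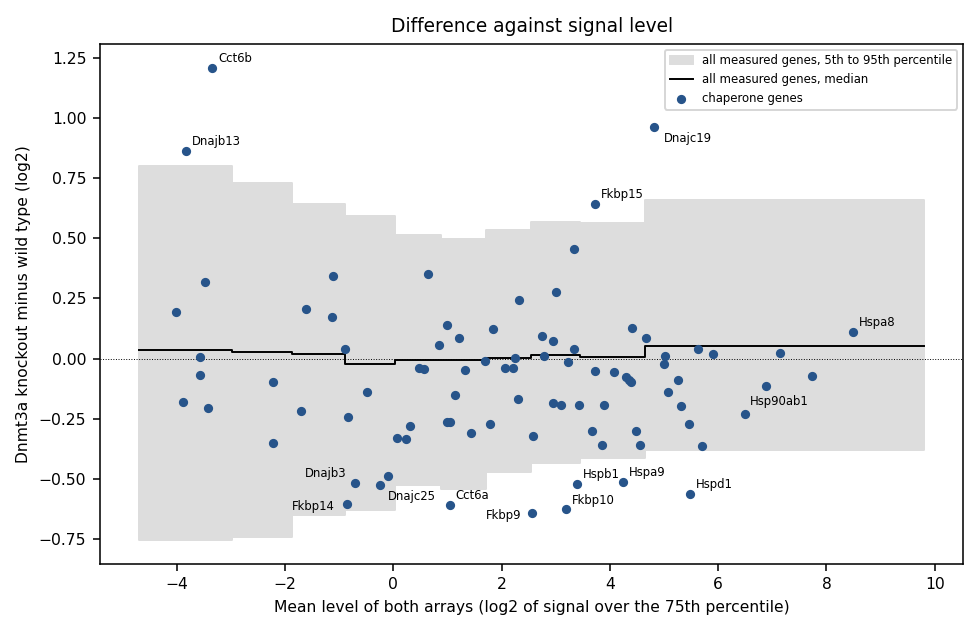
Difference between the arrays (log2, knockout minus wild type) against the mean level of both arrays (log2 of the signal over the array's 75th percentile). Points are the 88 chaperone genes, the black line is the median and the grey band the 5th to 95th percentile of all 13479 measured genes in 10 level bins. Below the band lie Cct6a, Fkbp9, Fkbp10, Hspb1, Hspa9 and Hspd1, and above it Cct6b, Dnajb13, Fkbp15 and Dnajc19.

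Beside the counts by class below, 48.1% of all measured genes lay below 0 and 21.5% were lower by more than the error. All 3 HSP90 genes that the rule takes in were lower on the knockout array, with a median of -0.36. Hsp90aa1, the stress-induced cytosolic form, went from 15482 in wild type to 11825 in the knockout (-0.36, SE 0.20). Hsp90b1, the HSP90 of the ER known as GRP94, went from 34495 to 26249 (-0.36, SE 0.20). For the constitutive cytosolic Hsp90ab1, at 71453 and 64750, the difference of -0.11 lay within the scanner error of 0.20. Trap1, the mitochondrial HSP90, whose symbol the rule does not take in, was at -0.18 (4763 and 4115), also within the error.

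The HSP70 class, with its HSP110 relatives, went both ways, and 6 of its 12 measured genes lay on each side of 0 (median -0.02). Relative to all genes the median was -0.04, and it was 0.05 with normexp background correction. Hspa9, the mitochondrial HSP70, stood lowest and fell from 13249 to 9091 (-0.51, SE 0.20). Hspa4l, an HSP110-type exchange factor, was at -0.31 and Hspa5, the HSP70 of the ER known as BiP, at -0.23 (56971 and 47509). Hspa4, another HSP110-type exchange factor, was at -0.14, with its 3 probes between -0.25 and -0.13, and Hspa14, an HSP70 of the ribosome, at -0.05. Hspa8, the constitutive cytosolic HSP70, gave 202314 and 213968 (0.11), and its other probes gave 0.12 and 0.31. Its relative Hsph1 was at 0.12, with its other probe at -0.04.

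The stress-inducible Hspa1a was barely above background on either array, at 49.0 and 48.2 (0.01, SE 0.29), where the lowest signal called well above background was 25.8 and 17.7. Its neighbour Hspa1l was at 50.6 and 47.2. Hspa1a has a near-identical copy, Hspa1b, so that the probe may read both. At the high end stood Hspa2, the HSP70 of the male germline, with 241 and 300 (0.34, SE 0.21), and Hspa12b, a distant endothelial relative, at 47.2 and 57.6 (0.32, SE 0.30). Hspa12a was not well above background on either array.

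The J-domain proteins form the largest class. All 4 of type A, the closest relatives of bacterial DnaJ, lay below 0, with Dnaja3, the mitochondrial one, lowest at -0.36 (9572 and 7303, SE 0.20). Dnaja1 and Dnaja2, which serve cytosolic HSP70, were at -0.20 (24720 and 21152) and -0.18, each with a further probe lower still (-0.30 and -0.24). Dnaja4 was highest at -0.14 (441 and 392).

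Of 10 measured type B genes 6 lay below 0, with a median of -0.14. Relative to all genes this was -0.15, and -0.06 among the members at or above the median level. The lowest was Dnajb3, at 430 and 295 (-0.52, SE 0.21), followed by Dnajb4 (-0.35, signals 142 and 109), Dnajb2 (-0.28) and Dnajb9 (-0.27), the last induced by ER stress. Dnajb1, the main partner of stress-induced HSP70, differed by -0.09 (12292 and 11316), within the error. The ER protein Dnajb14 gave 14471 and 15043 (0.09). Dnajb6, which holds back aggregation, was at 0.27 by its brightest probe (4284 and 5077), but its 4 probes ranged from -0.09 to 0.27. The difference of Dnajb13, a protein of cilia and sperm tails, was 0.86 (SE 0.37) and rested on signals of 30.6 and 54.5 near the background. It was 0.27 after normexp background correction.

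In type C 13 of 23 measured genes lay below 0, with a median of -0.05. Dnajc25, listed here with the ER genes, was lowest (593 and 404, difference -0.52, SE 0.20). Dnajc21, a factor of ribosome biogenesis, was at -0.49 with its other probe at -0.53. Dnajc1 of the ER (-0.32), Dnajc7, an adaptor between HSP70 and HSP90 (-0.30), and the ribosome-bound Dnajc2 (-0.26) were also lower by more than the error. Dnajc18 (0.35) and the ER reductase Dnajc10 (0.24, its other probe 0.22) were higher. Dnajc5, the cysteine-string protein of vesicle release, was at 127379 and 118537 (-0.07), and its 3 probes ranged from -0.07 to 0.09. Dnajc15, of the mitochondrial import motor, gave 18755 and 18534 (0.01). Over the measured J proteins listed for membrane traffic and synapses (4 of 7) the median was -0.00, with no difference beyond the error.

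Dnajc19, part of the motor that pulls proteins into mitochondria, showed the largest rise among the brighter genes. One probe went from 11794 to 22535 (0.96, 1.95-fold, SE 0.20), but the other, matched to a different transcript of the gene, gave 4519 and 4681 (0.08). The probes therefore disagree, and the first has its spot in row 14 of the array. Without the upper rows of the array, which also hold both probes of Fkbp15, Dnajc19 was at 0.08 and 1 of 66 members was 1.5-fold higher (1.52% against 5.48% of all genes).

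Dnajc11, which helps to shape mitochondrial cristae, shows how closely spots repeat. Its main probe lay on 10 spots, with signals from 1219 to 1445 (median 1303) in wild type and from 964 to 1186 (median 1089) in the knockout. The 2 ranges did not overlap, and all 10 differences were below 0 (mean -0.26, SD 0.06). These are repeats of 1 hybridisation and not biological replicates. Its other probe gave -0.06. The small HSP Hspb7, likewise on 10 spots but close to background (median 31.7 and 38.5), spread from -0.49 to 0.68 with an SD of 0.37, so that a single dim spot carries little.

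**Figure D3:**
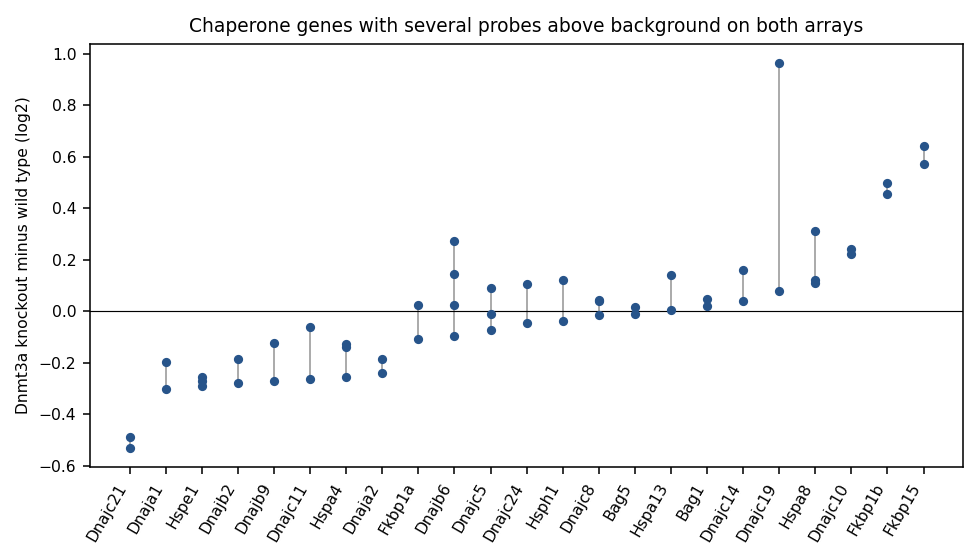
Difference between the arrays (vertical axis, log2, knockout minus wild type) for each probe of the 23 chaperone genes with several probes above background on both arrays. Points are probes and grey lines join the probes of a gene. In 16 genes all probes lie on the same side of 0, and Dnajc19 has the widest gap (0.08 to 0.96).

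Agreement between probes was otherwise close. The median range between probes of a gene was 0.12, and 16 of 23 genes had all probes on the same side of 0. The other 7, Bag5, Dnajb6, Dnajc24, Dnajc5, Dnajc8, Fkbp1a and Hsph1, straddled it.

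The exchange factors of the BAG family stayed near 0, with a median of -0.01 over 6 genes. Bag1, which also binds the survival factor Bcl2, gave 34808 and 34596 (0.02), and Bag3, the stress-induced partner of small HSPs in autophagy, gave 5477 and 5317 (-0.01). Bag6, which guards membrane proteins on their way to insertion, gave 11773 and 10951 (-0.07), and Bag5 was at -0.01. The outermost were Bag2 (357 and 296, difference -0.24) and Bag4 (253 and 279, difference 0.17). Hspbp1, an exchange factor of another fold, was at -0.04.

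Among the small HSPs 6 of 8 were measured, with a median of -0.04. Hspb1 (HSP27), which binds actin and is induced by heat, fell from 7307 to 4987 (-0.52, SE 0.20). Hspb6 (-0.04) and Hspb11 (-0.04, signals 2749 and 2621) lay within the error, Hspb8, the partner of Bag3, was near background (42.3 and 36.6, difference -0.18, SE 0.33), and the testis gene Hspb9 was at 0.21 (178 and 201). Hspb2 and Hspb3, genes of muscle, were not well above background on either array.

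The mitochondrial chaperonin was lower in both its parts. Hspd1 (HSP60) went from 31504 to 20884 (-0.56, 1.48-fold lower, SE 0.20), and Hspe1 (HSP10), its lid, from 28383 to 23029 (-0.27, SE 0.20). The 3 probes of Hspe1 lay between -0.29 and -0.25, whereas Hspd1 has 1 probe, in row 105. Without the upper rows, Hspe1 alone was left, at -0.29 relative to all genes. The 2 genes are neighbours on chromosome 1, transcribed away from each other, with 215 bases between the start sites shown in the RefSeq promoter table (GRCm38.p6). Their promoter windows share 285 bases and the same heat shock element, the binding site of heat shock factors. The element is shown because the pair that shares it was lower together. In capitals are the matches to GAANNTTCNNGAA or TTCNNGAANNTTC, 2 overlapping ones at Hspe1 and 1 at Dnajb6, the other gene of the set that has it:
Hspe1, chr1:55088053-55088082, + strand: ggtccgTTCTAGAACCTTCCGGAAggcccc
Dnajb6, chr5:29735844-29735872, + strand: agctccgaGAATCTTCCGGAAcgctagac

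The first stretch lies within the annotated span of Hspd1, which has a further start site upstream, and the second within that of the noncoding RNA gene Gm5129. The promoter table (RefSeq, GRCm38.p6) held 83 of the 100 genes, and the 250 bases before each start site were searched on both strands. Of these 83 genes 3 held such an element of 3 units (3.61%), Hspd1, Hspe1 and Dnajb6, against 0.514% of all 27025 genes in the table. Their differences were -0.56, -0.27 and 0.27. Hspd1 and Hspe1 share the same element, which counts for both genes in this share. The shorter form of 2 units (GAANNTTC or TTCNNGAA), which the longer form contains, was present in 18 of the 83 genes (21.7%) and in 14.5% of all genes. A match is a description of the letters and not of binding. No promoter was in the table for Bag4, Cct4, Dnajc11, Dnajc12, Dnajc18, Dnajc2, Dnajc22, Dnajc30, Dnajc5, Dnajc5b, Fkbp10, Hsp90aa1, Hsp90ab1, Hspa13, Hspa8, Hspa9 and Hspb2.

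The CCT chaperonin, which folds actin and tubulin in the cytosol, was slightly lower in most subunits. Of its 8 measured genes 6 lay below 0 (median -0.09). Cct6a stood lowest, with 1487 and 957 (-0.61, 1.52-fold lower, SE 0.20). Cct3 and Cct8 were both at -0.19, Cct7 at -0.10, Cct2 at -0.09 (23010 and 21191) and Cct4 at -0.05, all within the scanner error, and Cct5 was at 0.04 (28449 and 28648). Tcp1, the subunit whose symbol the rule does not take in, was at -0.09. Cct6b, the testis counterpart of Cct6a, went the other way, from 37.9 to 85.9 (1.21, 2.31-fold, SE 0.29). It was among the dimmest measured genes, and after normexp background correction it was at 0.60. Both Cct6 genes had 1 probe on 1 spot. Cct8l1 was not well above background on either array.

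The FKBPs had large differences on both sides. Their median was -0.20 over 13 measured genes, of which 8 lay below 0, 6 of them by more than the error. Relative to all genes it was -0.22, and -0.02 among the members at or above the median level, which leave out Fkbp4, Fkbp5, Fkbp7, Fkbp11 and Fkbp14. Fkbp9, an ER isomerase, went from 4318 to 2711 (-0.64, 1.56-fold lower, SE 0.20), and Fkbp10, which helps collagen to fold, from 6640 to 4212 (-0.63, 1.54-fold lower, SE 0.20). Fkbp14, another ER isomerase that acts on collagen, went from 397 to 256 (-0.61, 1.52-fold lower, SE 0.21), with its further probe not above background, and Fkbp7 from 689 to 537 (-0.33, SE 0.20). These 4 genes thus lay on the same side. Fkbp2 (-0.02) and Fkbp11 (-0.20), also listed with the ER, lay below 0 within the error.

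Beside these FKBPs stand the values of Serpinh1 and of stromal markers. Serpinh1 (HSP47), the collagen-specific chaperone of the ER, which the symbol rule does not take in, went from 4688 to 2726 (-0.75, SE 0.20). The stromal markers Col1a1 (-0.72), Col1a2 (-0.70), Col3a1 (-0.95) and Sparc (-0.48) were lower as well, on 1 probe each or on the brightest of several. Of the 16 ER folding enzymes outside the families 9 lay within the error, among them Ppib (-0.04) and P4hb (0.05). The part of stromal cells in the FKBP values was not tested.

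Of the other 9 measured FKBPs 5 lay above 0 and 4 below. Fkbp15, a protein of endosomes and actin, rose from 6175 to 9443 (0.64, 1.56-fold, SE 0.20), and its other probe gave 0.57. With spike-in scaling Fkbp15 was at 0.12, and both its probes lie in the upper rows of the array. Fkbp1b, which binds ryanodine receptors, rose from 5043 to 6771 (0.46, SE 0.20; other probe 0.50), and with spike-in scaling it was at -0.07. Fkbp1a (FKBP12), the target of rapamycin and tacrolimus, gave 81875 and 81510 (0.02). The HSP90 partner Fkbp4 was at -0.33 (772 and 600), while its rival Fkbp5, a target of glucocorticoids, was at 0.06 (1029 and 1049). The nuclear Fkbp3 was at -0.30, the mitochondrial Fkbp8 at 0.13, Fkbp2 at -0.02 (18784 and 18093) and the dim Fkbp11 at -0.20 (SE 0.28).

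Sorted by where the proteins work, most ER chaperones were lower. Of 17 genes 13 (76.5%) were below 0, against 48.1% of all measured genes, with a median of -0.23. By more than the error 9 of them were lower, as were 21.5% of all measured genes. Of the 4 above 0 only Dnajc10 was higher by more than it. Besides FKBPs the 9 lower genes were Hsp90b1, Hspa5, Dnajb9, Dnajc1 and Dnajc25. Dnajb11 was at -0.19 and Dnajc3, an inhibitor of the stress kinase PERK, at -0.17. Hspa13 (0.14), Dnajb14 (0.09) and Dnajb12 (0.00) were the others above 0.

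Hspa5, Hsp90b1 and Dnajc3 were the 3 members (3.61% of 83) whose 250 bases before the start site held the ER stress element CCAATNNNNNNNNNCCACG on either strand, against 0.130% of all genes in the table. They are shown, with the element in capitals, because these ER genes, at -0.23, -0.36 and -0.17, share it (GRCm38.p6, RefSeq). The element is named after the ER stress response of such genes, so these shares are a description and no test. A second element, on the other strand, is marked in Hsp90b1:
Hspa5, chr2:34771985-34772083, + strand: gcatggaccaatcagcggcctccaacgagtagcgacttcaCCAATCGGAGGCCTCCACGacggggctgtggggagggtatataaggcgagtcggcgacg
Hsp90b1, chr10:86705493-86705694, - strand: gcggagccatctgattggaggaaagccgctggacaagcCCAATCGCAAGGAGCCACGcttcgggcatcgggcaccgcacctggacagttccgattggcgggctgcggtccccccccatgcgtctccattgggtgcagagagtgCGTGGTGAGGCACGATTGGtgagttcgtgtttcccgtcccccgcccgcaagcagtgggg
Dnajc3, chr14:118937787-118937885, + strand: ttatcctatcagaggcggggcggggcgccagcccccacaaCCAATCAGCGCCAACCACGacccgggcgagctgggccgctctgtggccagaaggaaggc

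Mitochondrial chaperones split. Of 9 genes 5 (55.6%) were lower, each by more than the error. Of all measured genes 48.1% lay below 0 and 21.5% were lower by more than the error. The 5 genes were Hspd1, Hspa9, Dnaja3, Hspe1 and Dnajc11. These include HSP70, HSP60 and their helpers of the mitochondrial matrix. The other 4 lay above 0, Dnajc30 (0.01), Dnajc15 (0.01) and Fkbp8 within the error and Dnajc19 by the probe given above. The list's median was -0.26. Relative to all genes it was -0.28, and -0.18 with the mean of all probes of a gene.

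The list of stress-induced cytosolic chaperones also holds Hspa8 and Hsp90ab1, described above as constitutive. By their brightest probes, none of the list's genes was higher by more than the error. Further probes passed it upwards for Hspa8 (0.31, SE 0.20) and downwards for Dnaja1 (-0.30, SE 0.25). Of 13 measured genes 10 (76.9%) lay below 0 (median -0.18), against 48.1% of all measured genes. Hspb1, Hsp90aa1, Dnajb4, Fkbp4 and Hspa4l were lower by more than the error, where 21.5% of all measured genes were. The other 8, from Dnaja1 (-0.20) to Hsph1 (0.12), lay within it by their brightest probes. Relative to all genes the list's median was -0.19, and -0.09 with normexp background correction.

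**Figure D4:**
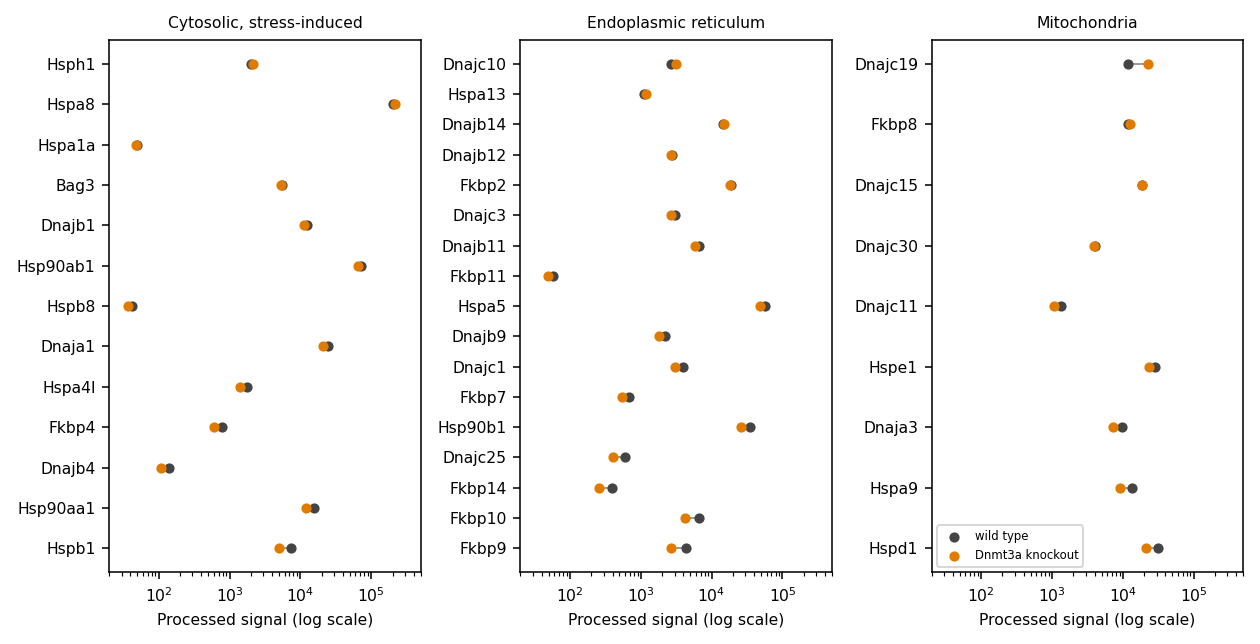
Processed signal (log scale) of each chaperone gene on the wild type array (grey) and the Dnmt3a knockout array (orange), for stress-induced genes of the cytosol, genes of the endoplasmic reticulum and mitochondrial genes, sorted by difference. Only the gap within a row can be compared, since each row is another probe. The widest gaps are those of Dnajc19 (11794 and 22535) and, downwards, Fkbp9 (4318 and 2711).

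Another 12 genes were not measured on both arrays. Of these, 8 were not well above background on either: Hspa12a, Hspb2, Hspb3, Dnajb7, Dnajc22, Dnajc5g, Dnajc6 and Cct8l1. Dnajc27, a small GTPase with a J domain, was above background only in the knockout (24.2 and 34.4), with a bound of 1.36-fold higher. In log2 this bound is 0.44, less than the SE of 0.47. Dnajc5b, a relative of cysteine-string protein, was also above background only there (9.24 and 27.2, SE 1.035), with a bound of 1.08-fold. So was the testis gene Dnajb8 (5.72 and 20.2, SE 1.49), whose bound does not exceed 1. Fkbp6, a gene of meiosis, was above background only in wild type (29.8 and 14.6, SE 0.49), with a bound of 1.65-fold lower. For these bounds the dim array counted at its lowest signal well above background, or at the probe's own where that was higher. The bounds take no account of the scanner error.

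Genes of the same pathways outside these families are given by list. The shares to set beside the counts of each list are those of all measured genes. Of these 48.1% lay below 0, 21.5% were lower by more than the error and 24.0% were higher by more than it. Of the heat shock factors, Hsf1, the master regulator of the response, gave 2320 and 2145 (-0.08), Hsf2 was at -0.29, the inhibitor Hsbp1 at 0.13 and the dim Hsf4 at 0.34, for a median of 0.02 over 4 genes. Relative to all genes it was 0.01, and -0.07 with normexp background correction. Hsf5 and Hsf2bp were not well above background. Prefoldin, which hands clients to CCT, and its companions lay below 0 in 10 of 11 genes (median -0.12), from Pfdn4 (-0.32) and Mkks (-0.31) to Pfdn6 (-0.04) and Pfdn5 (0.18). The 2 lowest, Pfdn4 and Mkks, were beyond the error.

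Co-chaperones of HSP90, a list that also holds Trap1, had a median of -0.04 over 17 genes, 5 lower and 2 higher by more than the error. Tomm70a, the import receptor that HSP90 docks on, was at -0.50 and the cyclophilin Ppid at -0.40, while Unc45a, at 0.24, was among the higher ones. Cdc37, which brings kinases to HSP90, was at 0.04 and Ahsa1, the activator of its ATPase, at 0.03. Co-chaperones of HSP70 had a median of -0.07 over 10 measured genes, with Grpel2 (-0.30) and Sec63 (-0.19) lowest and St13 (0.02) and Hscb (0.14) highest.

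Hspbap1, a binding partner of small HSPs that the rule leaves out, gave 594 in wild type and 16.2, not well above background, in the knockout, a fall of at least 32.9-fold. It rests on 1 probe and 1 spot, in row 319 and column 153.

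In the ER, the folding enzymes lay below 0 in 15 of 16 genes (median -0.12), 7 of them by more than the error. After Serpinh1 came the disulfide isomerase Pdia4 (-0.48), and Erp29 (-0.01) and P4hb (0.05), the subunit of prolyl hydroxylase, were highest. Among sensors and targets of the unfolded protein response, 7 of 23 genes were lower and 4 higher by more than the error (median 0.01). Among those at or above the median level the median was -0.14 relative to all genes. Edem1 (-0.56) and Asns (-0.54) were lowest and Trib3 (0.26) and Edem2 (0.31) highest, with Xbp1 at 0.05 and Ddit3 (CHOP) at 0.11.

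Proteases and quality control factors of mitochondria had a median of -0.16 over 10 genes, led downwards by Afg3l2 (-0.57) and Htra2 (-0.24), with Oma1 (0.04) and Afg3l1 (0.06) highest. Cyclophilins, the other large isomerase family, had a median of -0.06 over 11 genes. Ppic (-0.49) and the mitochondrial Ppif (-0.44) were lowest, and Nktr (0.10) and Ppil1 (0.17) highest. At 1.5-fold, Serpinh1 was the only one past that mark among the genes of these 8 lists that were measured on both arrays, and none rose that far. Of all measured genes 4.69% were at least 1.5-fold lower and 5.82% at least 1.5-fold higher.

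**Figure D5:**
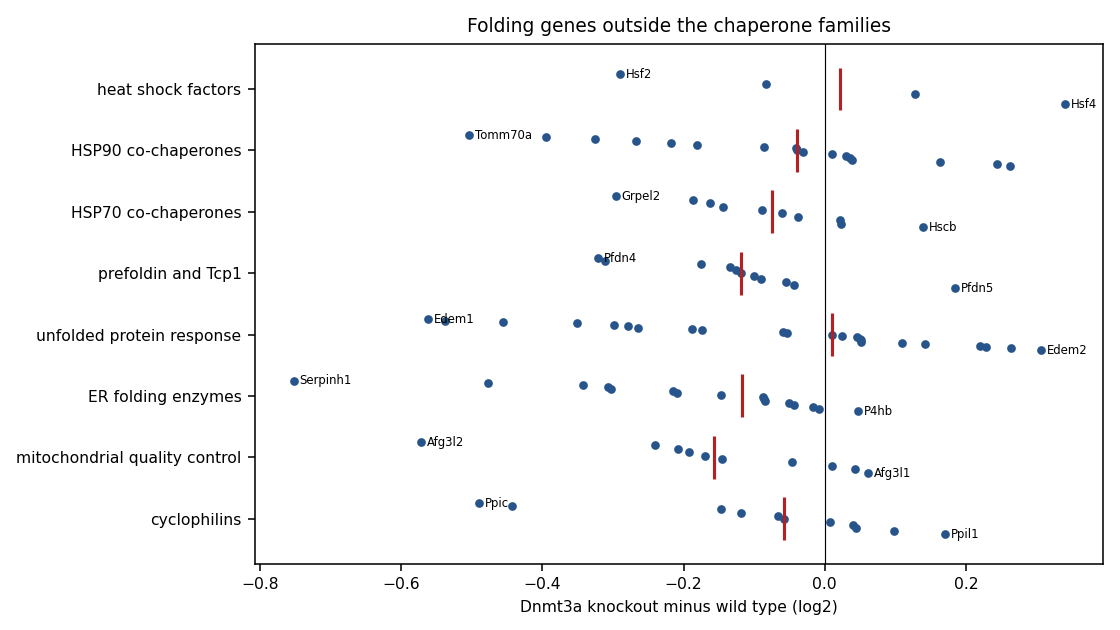
Difference between the arrays (horizontal axis, log2, knockout minus wild type) for folding genes outside the chaperone families, in 8 lists. Points are genes measured on both arrays and red lines list medians. The medians lie between -0.16 (mitochondrial quality control) and 0.02 (heat shock factors), and Serpinh1 (-0.75) is the lowest point.

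Several of these genes have close copies. The RefSeq table lists pseudogenes or related sequences of Hspd1, Hspe1, Hspa9, Dnaja1, Dnajb6, Dnajc19, Cct3 and Fkbp1a, so that their probes may read more than 1 sequence.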

How the data were processed

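RNA of 1 wild type and 1 Dnmt3a knockout osteoclast culture was hybridised to 1-colour Agilent arrays. Per the file headers, the deposited spot intensity had its background subtracted and its spatial trend removed by Agilent Feature Extraction 10.10.1.1, while the submitters' processing notes give version 9.1. The headers place the probes on mm9. No normalization between arrays had been applied to it. The authors' value table holds the same intensity times a constant for each array (1.55 and 1.54; column medians 59.6 and 66.5). Its scale is linear and it is neither centred nor a ratio. How the constant was chosen stays unknown.

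Here, log2 of the processed signal minus that of the array's 75th percentile over 59305 non-control spots was used. The 289 spots marked uneven or outlying on either array were left out, the spots of a probe were averaged, and no spot was saturated. Of 55649 probes, 27224 were named through unversioned accessions in RefSeq (GRCm38.p6), and the brightest probe stood for its gene. A gene was measured where most of its spots were well above background. Signals are given for members past 1.5-fold, for the extremes and brightest 2 of each class and for further members chosen after their values were seen. The 2 highest and 2 lowest genes are given for each list outside the families, with further ones chosen likewise; some genes of these lists are not reported here. The members and lists were chosen with earlier results of these data known. The calculations (Python 3.11.15, pandas 2.3.3) were tested on simulated data. Alternatives were other scalings, normexp (limma 3.58.1, offset 50, on the median spot signal in place of the mean signal planned), other probe filters and parts of the array left out. Protein sequences were not used here.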

Additional observations from a re-analysis of the deposited data

How the results depend on the processing

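No paired analysis was possible because each genotype has 1 array, and for the same reason no replicate could be left out. No gene past 1.5-fold changed direction under the alternatives that gave it a value, while some medians near 0 changed sign. Spike-in and median scaling each shift all genes alike by less than 1.5-fold, so neither could turn such a gene. The smallest values of Dnajc19 and Fkbp15 were 0.08 (without the upper rows) and 0.12 (spike-in scaling). Those of Dnajb13 and Cct6b were 0.27 and 0.60, both with normexp. Among the genes past 1.5-fold downwards, the value nearest 0 was -0.45, for Fkbp14 with normexp. The deposited value table, keeping marked spots and leaving out a corner of the array moved no result beyond the limits set for them. These alternatives could change little for the members. The value table differs by a constant for each array, which the scaling removes. No spot of a member was marked, and 87 of the 88 members kept a value without the corner. With spike-in scaling the members' median was -0.61, 95.5% lay below 0 (all genes 92.5%), 47 were 1.5-fold lower (53.4% against 39.5%) and 1 higher (1.14% against 0.490%). With median scaling these were -0.28, 87.5% (all genes 74.2%) and 10 lower (11.4% against 10.5%). With normexp 2 were lower and 2 higher (2.27% each, against 2.16% and 3.64%). The number higher was 7 with no filter on dim probes (7% against 12.4%), 2 at or above the median level (3.33% against 4.79%) and 1 without the upper rows of the array (1.52% against 5.48%). The following medians are relative to that of all genes. The FKBP median was -0.31 with quantile normalization, -0.019 at or above the median level and -0.29 without the upper rows. HSP70 was at 0.052 with normexp, -0.11 at or above the median level and 0.040 without those rows. The small HSPs were at 0.037 with no dim filter and -0.30 at or above the median level. J-domain B was at -0.061 at or above the median level and -0.25 without the upper rows, where CCT was at -0.21, HSP60 with HSP10 at -0.29 and the cyclophilins at 0.015. Heat shock factors were at -0.071 with normexp, -0.17 with no dim filter and -0.10 without those rows. The stress-induced genes were at -0.090 with normexp, the trafficking J proteins at 0.056 with no dim filter, the unfolded protein response at -0.14 at or above the median level and the mitochondrial genes at -0.18 with the mean of probes. The cause of these shifts was not tested. Signals near background limit the dim genes, among them Cct6b, Dnajb13 and Hspa1a.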
